A study of Rattus norvegicus with 26 samples.

Results

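Vehicle-treated rat spinal cord taken 4 weeks after the injection (+PBS-4w) was compared with cord that had not been compressed (Intact), to describe the injury state that remained once the subacute phase had passed. Libraries were placed in groups by their labels alone. They are the 4 +PBS-4w and the 4 Intact libraries, 8 of the 26 libraries of the series, and 3 libraries of injured cord from the time of the injection (sub-SCI) served as an earlier reference. The rats of all groups were adult female Sprague-Dawley animals of wild type genotype, and the labels give postnatal day 70 for all 26 samples whatever the time of collection. Injured rats had a thoracic laminectomy and a compression of the cord with an aneurysm clip for 1 min. The +PBS-4w rats received PBS into the intrathecal space 7 days later, so that their cord was taken 35 days after injury. The injured rats were also given penicillin after surgery and cyclosporin A daily. The study calls the Intact rats intact or sham and their label is "untreated", and whether they had a laminectomy or cyclosporin A is not given in the sources used here. Injury, laminectomy, injection, cyclosporin A and elapsed time therefore cannot be told apart in this comparison. Each library came from a 5 mm segment of cord, centered at the lesion in injured rats, and the labels name no animal for a library. The p-values then measure the spread between these samples, which may be technical.

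A clip compression kills neurons and oligodendrocytes at the epicenter and cuts the long axon tracts that pass through it. Blood-borne macrophages and resident microglia clear the debris of cells and myelin. Astrocytes become reactive and wall off a core that is filled by fibroblasts, macrophages and collagen, and this scar persists for the life of the animal. In the uninjured cord, GABA and glycine released by interneurons carry fast inhibition, glutamate carries fast excitation, and oligodendrocytes make the myelin that lets axons conduct quickly. In a bulk segment, fewer cells of a type and less RNA per cell cannot be told apart.

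The total count per library was 19496602 to 26813098 in Intact and 21327390 to 28291215 in +PBS-4w (two-sided exact permutation test, p = 0.514). Transcripts encoded by mitochondria held 7.47% ± 0.78 (SD, n = 4) of the counts in Intact and 4.13% ± 0.50 (SD, n = 4) in +PBS-4w, with every Intact library above every +PBS-4w library (two-sided exact permutation test, p = 0.0286, the smallest that 4 against 4 libraries allow). The first principal component, which held 60.75% of the variance over 11 libraries, placed Intact on one side and both injured groups on the other. +PBS-4w replicate 1 lay apart on the second component (12.61% of the variance), at 52.5 against -44.5 to -66.9 for replicates 2 to 4. Its departure ran with transcript length. Intact replicate 1 also differed in part and held few transcripts of nerve roots and meninges: Egr2, a regulator of Schwann cells, was at 0.0546, 3.21, 2.41 and 1.9 CPM in Intact replicates 1 to 4. CPM here are counts scaled to a library total of 1000000 after TMM scaling, and libraries are given in the order of their replicate numbers throughout.

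**Figure D1:**
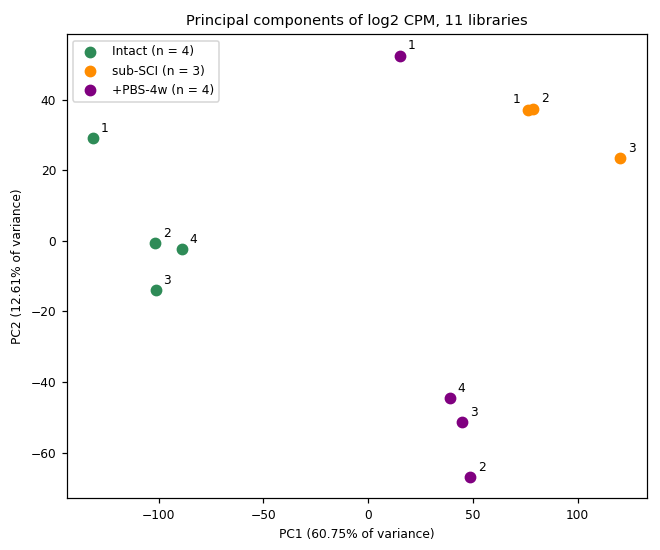
Principal components of log2 CPM for the Intact (n = 4), sub-SCI (n = 3) and +PBS-4w (n = 4) libraries, with the first component on the x axis, the second on the y axis and the replicate number beside each point. The Intact libraries lie between -131 and -88.8 on the first component and the +PBS-4w libraries between 15.1 and 48.6, and +PBS-4w replicate 1 lies at 52.5 on the second component, away from the other 3.

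Of 17990 genes tested, 2395 (13.3%) were higher and 1923 (10.7%) lower in +PBS-4w than in Intact, counting as DEGs those beyond 1 or -1 on the log2 scale with an adjusted p below 0.01 by edgeR's quasi-likelihood test. Without +PBS-4w replicate 1 the numbers were 2687 (14.9%) and 2082 (11.6%). Of the 4318 DEGs with all libraries, 3991 had the same call without that library and 0 had the opposite one. The higher DEGs had a median log2 fold change of 1.87 and 121 of them were past 16-fold, whereas the lower DEGs had a median of -1.66 and 8 were past 16-fold. The median over all genes tested was 0.05, or 0.10 without replicate 1, and is the level against which the medians of gene lists below are read. Counts of genes called in a list are read beside the 13.3% higher and 10.7% lower of all genes tested. All 4 +PBS-4w libraries lay above all 4 Intact libraries for 22.4% of genes tested and below them for 21.3%. Statements below that groups did not overlap are read beside these shares. The lists hold 870 different genes, of which 821 were tested, 22 were below the expression filter and 27 are not analysed here.

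The higher DEGs with the smallest adjusted p were led by genes of phagocytes. They were Gpnmb, a glycoprotein of lipid-laden macrophages, Unc93b1, which escorts toll-like receptors to endosomes, Cd8b, Arl11, Clec7a, a receptor for fungal glucans, Lpxn, Tgif1, Cd63, Cd68 and Mdfic. Gpnmb was at 20.1, 20.8, 24.2 and 36.1 CPM in Intact and at 2682, 2533, 5378 and 3293 CPM in +PBS-4w (log2 fold change 7.10, SE 0.39, edgeR adjusted p = 1.74e-10). Cd68, the lysosomal marker of macrophages, was at 2.40, 3.30, 3.56 and 5.82 and at 286, 219.7, 417 and 265 CPM (log2 fold change 6.29, SE 0.38, edgeR adjusted p = 2.18e-10). For both genes the lowest injured library stood far above the highest Intact library, and the levels did not overlap. By size, the higher DEGs were led by Mmp12, the macrophage elastase, with 0, 0, 0.0463 and 0.0760 CPM in Intact and 38.6, 8.93, 46.1 and 38.6 CPM in +PBS-4w. Its Intact level rests on 3 counts in all, and the ratio of the summed counts was 982 (95% exact binomial interval 336 to 4766, counting error only). Fcrl2 (7.56), Sost (7.35), which encodes the Wnt antagonist sclerostin, and Cd8b (7.10) followed on the log2 scale, with Gpnmb between them at 7.10.

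Among the lower DEGs, enzymes of cholesterol synthesis had several of the smallest adjusted p-values. The 10 were Acat2, Msmo1, L1cam, an adhesion molecule of axons, Nsdhl, Lmtk2, Kcnq5, Mest, Sc5d, Sqle and Rimkla. Acat2, the cytosolic thiolase that feeds the pathway, was at 81.3, 82.5, 69.3 and 75.3 CPM in Intact and at 20.01, 13.7, 12.5 and 16.5 CPM in +PBS-4w (log2 fold change -2.30, SE 0.17, edgeR adjusted p = 1.60e-09). L1cam was at 231, 223, 242 and 217 and at 54.1, 64.8, 68.1 and 69.7 CPM (log2 fold change -1.83, SE 0.14, edgeR adjusted p = 3.86e-09). Each of these pairs of groups was far apart with little spread inside. By size, the lower DEGs were led by Mmp13, Slc17a7, Col19a1, Kcnh7 and Gabrb2. Mmp13, which encodes a collagenase, rested on a single library and was at 0.546, 0.183, 0.370 and 43.7 CPM in Intact and at 0.708, 0.247, 0.0895 and 0.596 CPM in +PBS-4w. Its groups overlapped, it was not called without +PBS-4w replicate 1 (edgeR adjusted p = 0.0149) or any other +PBS-4w library, and without Intact replicate 4 its log2 fold change was 0.19.

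**Figure D2:**
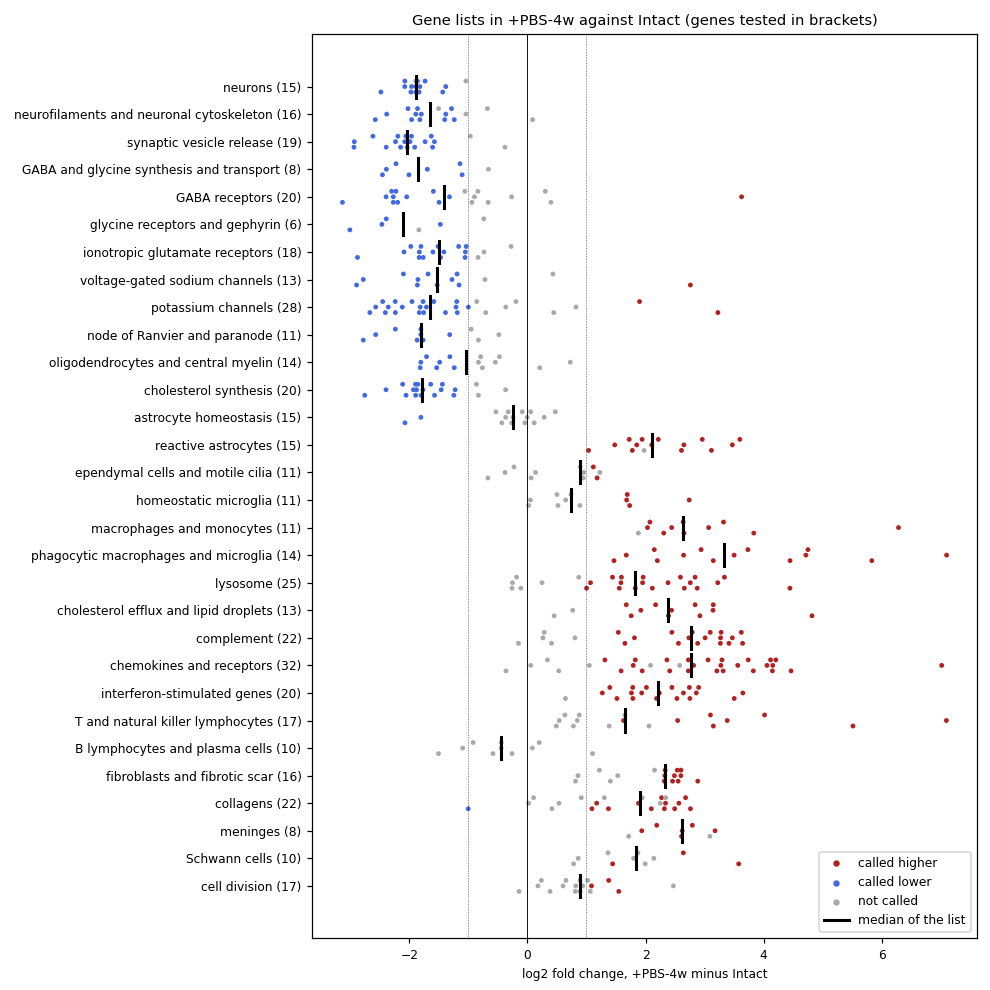
Log2 fold change of +PBS-4w (n = 4) against Intact (n = 4) for each tested gene of 30 gene lists, with 1 point per gene on the x axis and 1 row per list on the y axis (number of genes tested in brackets). Red points were called higher, blue points lower and grey points not called, dotted lines mark a log2 fold change of 1 and -1, and black bars are list medians. Neuronal, synaptic and cholesterol synthesis lists lie left of 0 and phagocyte, complement and matrix lists to its right.

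Neuronal transcripts were lower. Of 15 neuronal genes, 13 were lower and 0 higher, where 10.7% of all genes tested were lower and 13.3% higher (median log2 fold change -1.89, and -2.53 without +PBS-4w replicate 1, when 15 were lower). Rbfox3, which encodes the nuclear protein NeuN, was at 76.1, 64.0, 74.6 and 62.8 CPM in Intact and at 18.9, 6.24, 11.9 and 12.6 CPM in +PBS-4w (log2 fold change -2.48, SE 0.34, edgeR adjusted p = 3.86e-06). Snap25, a SNARE protein of synaptic vesicle fusion, was at 1691, 1149, 1187 and 1169 and at 739, 146, 171 and 175 CPM (log2 fold change -2.08, SE 0.50, edgeR adjusted p = 0.00155). All +PBS-4w libraries were below all Intact libraries for both genes, and replicate 1 held clearly more Snap25 than the other 3 injured libraries. Thy1, a surface protein of mature neurons, showed the same order of libraries, at 542, 130.3, 139 and 147 CPM in +PBS-4w against 945 to 1153 CPM in Intact.

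The neuronal cytoskeleton followed. Of 16 genes of neurofilaments, axonal motors and microtubules, 12 were lower and 0 higher (median log2 fold change -1.65). The log2 fold changes of Ina, Nefl, Nefm and Nefh, the filament proteins that set axon caliber, were -2.58, -1.96, -1.89 and -1.86, and that of Kif5a, a kinesin of axonal transport, was -2.38. Nefl was at 3502, 3622, 3229.6 and 2976 CPM in Intact and at 1745, 505, 507 and 664 CPM in +PBS-4w. Of 9 motor neuron genes 3 were lower, where 10.7% of all genes were (median -1.21), namely Ache, which breaks down acetylcholine, Slc5a7, which takes choline back into the terminal, and Chat, which makes acetylcholine. Chat was at 30.2, 49.98, 44.4 and 32.9 CPM in Intact and at 20.4, 14.7, 14.6 and 18.2 CPM in +PBS-4w (log2 fold change -1.21, SE 0.37, edgeR adjusted p = 0.00881), and the groups did not overlap. It was not called with any 1 of the 8 libraries left out (edgeR adjusted p = 0.0113 without +PBS-4w replicate 1, log2 fold changes -1.29 to -1.03 over the 8), and Nefm and Nefh were not called without +PBS-4w replicate 2, 3 or 4.

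The machinery of inhibition was lower from the transmitter to the receptor. Of 8 genes for making and transporting GABA and glycine, 7 were lower and 0 higher (median log2 fold change -1.85). Slc6a5, the glycine transporter of glycinergic terminals, was at 569.8, 385, 429.6 and 353 CPM in Intact and at 147, 54.0, 72.0 and 43.8 CPM in +PBS-4w (log2 fold change -2.46, SE 0.47, edgeR adjusted p = 0.000169). Slc32a1, which loads both transmitters into vesicles, was at 252, 181, 183 and 169 and at 102, 18.9, 26.4 and 20.2 CPM (log2 fold change -2.23, SE 0.52, edgeR adjusted p = 0.00116). Gad1 and Gad2, the enzymes that make GABA, had log2 fold changes of -1.70 and -2.01.

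GABA receptor subunits were lower in 11 of 20 cases and higher in 1 (median log2 fold change -1.41). These subunits assemble into chloride channels or, for the B type, receptors that act through G proteins. Gabra5, the subunit of many channels outside synapses, was at 56.8, 47.5, 49.1 and 44.6 CPM in Intact and at 24.1, 4.02, 6.26 and 6.42 CPM in +PBS-4w (log2 fold change -2.27, SE 0.48, edgeR adjusted p = 0.000433), and replicate 1 was the highest of the injured libraries. Gabrb2 was instead lowest in replicate 1, at 0.0745, 2.58, 2.15 and 1.24 CPM in +PBS-4w against 10.4 to 16.9 CPM in Intact (log2 fold change -3.13, SE 0.51, edgeR adjusted p = 3.35e-05). Gabra3 and Gabrg3 had log2 fold changes of -2.20 and -2.04, and Gabbr2, a subunit of the B type, had -2.40. Gabra2 was at 51.2, 52.5, 56.0 and 49.2 CPM in Intact and at 9.17, 28.3, 34.2 and 40.6 CPM in +PBS-4w and was not called (log2 fold change -0.90, SE 0.29, edgeR adjusted p = 0.0127). The single subunit called higher was Gabrr2, a rho subunit best known from the retina, at 0, 0.0458, 0.139 and 0.304 CPM in Intact and at 1.602, 1.23, 2.103 and 1.79 CPM in +PBS-4w (log2 fold change 3.63, SE 0.48, edgeR adjusted p = 2.80e-06), a low level in every library.

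Of 6 genes of glycine receptors and their anchor, 4 were lower (median log2 fold change -2.12). Glra1, the main adult subunit in the cord, was at 158, 137, 165 and 110.2 CPM in Intact and at 11.3, 16.5, 23.8 and 19.3 CPM in +PBS-4w (log2 fold change -3.01, SE 0.34, edgeR adjusted p = 3.50e-07). Gphn, the scaffold gephyrin, was at 49.7 to 65.8 CPM in Intact and at 26.8 to 42.3 CPM in +PBS-4w, with a log2 fold change of -0.74 that did not reach the threshold. Whether GABA and glycine inhibit depends on the chloride gradient, which cation-chloride cotransporters set. Slc12a5, which encodes the chloride extruder KCC2, was at 486, 398, 443 and 385 CPM in Intact and at 123, 49.4, 72.2 and 69.7 CPM in +PBS-4w (log2 fold change -2.45, SE 0.37, edgeR adjusted p = 1.17e-05). Slc12a2, which encodes the importer NKCC1, was at 504, 515, 516 and 514 and at 322, 429.7, 385 and 381 CPM, without overlap but with a log2 fold change of only -0.43. Slc12a7 and Slc12a4, cotransporters used outside neurons, were higher (2.75 and 1.08 on the log2 scale).

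Excitatory transmission was lower as well. Of 18 ionotropic glutamate receptor genes 15 were lower and 0 higher (median log2 fold change -1.49), and of 7 metabotropic receptor genes 7 were lower (median -1.94). Grin1, the obligatory subunit of NMDA receptors, was at 303, 260.5, 289 and 256 CPM in Intact and at 130.4, 32.0, 49.3 and 48.4 CPM in +PBS-4w (log2 fold change -2.09, SE 0.40, edgeR adjusted p = 0.000178). Gria2, the AMPA receptor subunit that limits calcium entry, was at 201, 138, 161 and 153 and at 63.2, 37.3, 56.9 and 57.9 CPM (log2 fold change -1.60, SE 0.26, edgeR adjusted p = 3.12e-05). Grin2a had the largest change of the family (log2 fold change -2.88, SE 0.52, edgeR adjusted p = 0.000106). Slc17a6, which loads glutamate into the vesicles of cord interneurons, was at 215, 170.4, 196 and 178 CPM in Intact and at 75.2, 24.1, 30.6 and 24.6 CPM in +PBS-4w (log2 fold change -2.30, SE 0.39, edgeR adjusted p = 4.56e-05). Slc17a7, its counterpart in primary afferents and descending axons, was at 9.22, 23.6, 22.1 and 27.3 and at 0.894, 0.353, 0.850 and 1.47 CPM (log2 fold change -4.54, SE 0.90, edgeR adjusted p = 0.000251). With Slc17a8, Calb1, Calb2 and Pvalb, the last 3 calcium-binding proteins of interneurons, these made a list of 6 genes, of which 4 were lower, and 2 without +PBS-4w replicate 2, 3 or 4.

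Of 19 genes of vesicle release, 17 were lower and 0 higher (median log2 fold change -2.04). Syt2, a calcium sensor of fast release, was at 438, 348, 419.8 and 320.2 CPM in Intact and at 71.0, 38.5, 46.6 and 43.7 CPM in +PBS-4w (log2 fold change -2.93, SE 0.36, edgeR adjusted p = 9.30e-07), and Sv2c, Rims1 and Pclo, proteins of vesicles and of the active zone, had log2 fold changes of -2.94, -2.62 and -2.39. For neuropeptide genes the count turned on replicate 1: 0 of 16 were lower with all libraries (median -0.87) and 9 without it (median -1.61). Penk, the enkephalin precursor, was at 122, 98.1, 118 and 120.0 CPM in Intact and at 138, 18.3, 37.8 and 27.7 CPM in +PBS-4w. Replicate 1 lay above the Intact libraries for this gene and the other 3 injured libraries below them.

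Voltage-gated channels were mostly lower. Of 13 sodium channel genes 10 were lower and 1 higher, of 22 calcium channel genes 17 were lower and 0 higher, and of 28 potassium channel genes 20 were lower and 2 higher. Their median log2 fold changes were -1.53, -1.43 and -1.65. Scn8a, the sodium channel of nodes of Ranvier, was at 305, 233, 304 and 220.2 CPM in Intact and at 18.0, 37.6, 52.9 and 46.3 CPM in +PBS-4w (log2 fold change -2.78, SE 0.32, edgeR adjusted p = 5.28e-07). Replicate 1 was the lowest injured library for Scn8a. The genes called higher were Scn7a, a sodium channel relative found in glia, which was not called without +PBS-4w replicate 2, Kcnn4, a calcium-activated channel of macrophages and lymphocytes, and Kcnk13, a background channel of microglia. Kcnn4 was at 1.47, 1.92, 1.71 and 6.84 CPM in Intact and at 51.6, 22.9, 21.6 and 18.1 CPM in +PBS-4w (log2 fold change 3.23, SE 0.51, edgeR adjusted p = 2.31e-05).

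At the node of Ranvier, 8 of 11 genes were lower and 0 higher (median log2 fold change -1.81). Ank3, which anchors the sodium channels, was at 445, 394, 479 and 387 CPM in Intact and at 92.3, 123, 142 and 131 CPM in +PBS-4w (log2 fold change -1.81, SE 0.18, edgeR adjusted p = 7.95e-08), and Cntnap1, which seals the paranode, had a log2 fold change of -1.81. Of 12 receptor genes for serotonin, the transmitter of the descending raphe axons, 7 were lower and 1 was higher. Htr2c was at 227, 169, 174 and 152 CPM in Intact and at 97.96, 26.5, 31.7 and 24.2 CPM in +PBS-4w (log2 fold change -2.0, SE 0.47, edgeR adjusted p = 0.00113). Htr2b, which microglia also carry, went the other way, at 0.655, 0.641, 0.509 and 0.836 and at 9.61, 8.64, 16.4 and 12.9 CPM (log2 fold change 4.15, SE 0.28, edgeR adjusted p = 8.21e-10). In neither case did the groups overlap.

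Central myelin genes were lower in part. Of 14 oligodendrocyte genes 7 were lower and 0 higher (median log2 fold change -1.03). Mbp, the protein that compacts the myelin sheath, was at 32980.5, 34568, 31206 and 35084 CPM in Intact and at 16065, 8695, 9646 and 11713 CPM in +PBS-4w (log2 fold change -1.54, SE 0.26, edgeR adjusted p = 5.62e-05). Ugt8, which makes the galactolipids of myelin, was at 863, 848, 759.7 and 899 and at 243, 233, 197 and 283 CPM (log2 fold change -1.82, SE 0.27, edgeR adjusted p = 1.07e-05). No injured library reached the Intact range for either gene. Other genes of the same cells did not pass the threshold, among them Mag at a log2 fold change of -0.79, Myrf, the regulator of myelin genes, at -0.54, Opalin at -0.47 and Cldn11, the tight junction protein of myelin, at 0.21. Of 10 genes of oligodendrocyte precursors 1 was called, Pdgfra, which fibroblasts share, at 83.8, 103, 156 and 127 CPM in Intact and 99.0, 399, 359 and 280.0 CPM in +PBS-4w (log2 fold change 1.27, SE 0.31, edgeR adjusted p = 0.00166), with replicate 1 inside the Intact range, and without that library 1 was lower as well. Olig1, Olig2, Sox10 and Cspg4 were not called, with log2 fold changes of -0.74, -0.49, -0.24 and 0.53. Among all genes tested 13.3% were higher and 10.7% lower.

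Peripheral myelin went the other way. Of 10 Schwann cell genes 3 were higher and 0 lower, where 13.3% of all genes tested were higher (median log2 fold change 1.83). Schwann cells belong to the nerve roots and can enter the injured cord. Egr2, the regulator that starts myelination in these cells, was at 0.0546, 3.21, 2.41 and 1.9 CPM in Intact and at 15.1, 30.9, 26.8 and 18.7 CPM in +PBS-4w (log2 fold change 3.58, SE 0.62, edgeR adjusted p = 5.74e-05). Gldn, which gathers sodium channels at peripheral nodes, was at 0.764, 6.32, 3.79 and 2.89 and at 8.61, 39.1, 18.4 and 20.2 CPM (log2 fold change 2.64, SE 0.57, edgeR adjusted p = 0.000598). The third gene called was Pmp22 (1.44), a myelin protein of the same cells. Without Intact replicate 1, 2 of the 10 genes were higher and the median was 1.52, and without +PBS-4w replicate 1 they were 4 and 2.06. How much nerve root each segment held was not measured, and its part in these values was not tested.

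Cholesterol synthesis genes were lower nearly throughout. Myelin holds most of the cholesterol of the cord, and it is made in place because blood cholesterol does not enter. Of 20 genes of the pathway and its regulators 17 were lower and 0 higher (median log2 fold change -1.79, and -1.78 without +PBS-4w replicate 1). In all 20 the 4 injured libraries lay below the 4 Intact libraries, which held for 21.3% of all genes tested. Hmgcs1, which starts the committed branch, was at 987, 1065, 782 and 787 CPM in Intact and at 147, 168, 78.0 and 142 CPM in +PBS-4w (log2 fold change -2.76, SE 0.26, edgeR adjusted p = 3.43e-08). Srebf2, the factor that drives the pathway, had a log2 fold change of -0.83 and Dhcr7 had -0.86, neither past the threshold. +PBS-4w replicate 1 did not stand out for these genes. A sterol response element, searched as TCACNCCAC on both strands, was in 0 of the 15 RefSeq promoter windows found for the list (assembly GRCr8, 250 bases before to 50 after the gene start) and in 1.13% of all 27457 windows.

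Genes that move cholesterol out of cells or store it were higher instead. Of 13 such genes 11 were higher and 0 lower (median log2 fold change 2.39). Apoe, the main lipoprotein of the nervous system, was at 2805, 2776, 2433 and 2751 CPM in Intact and at 32014, 16556, 26304 and 20547 CPM in +PBS-4w (log2 fold change 3.15, SE 0.22, edgeR adjusted p = 1.36e-09). Abca1, the pump that loads it with cholesterol, was at 39.7, 56.3, 51.2 and 83.5 and at 225, 488, 758 and 569 CPM (log2 fold change 3.14, SE 0.29, edgeR adjusted p = 2.51e-08). Soat1, which esterifies cholesterol for storage, and Ch25h, which makes an oxysterol that shuts off synthesis, had log2 fold changes of 2.44 and 2.92. Fabp4, a fatty acid carrier of adipocytes and macrophages, had 4.82, from a level of at most 2.85 CPM in Intact, while the adipocyte genes Cidec and Plin1 were not called.

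Reactive astrocyte genes were higher in 14 of 15 cases (median log2 fold change 2.11), where 13.3% of all genes tested were higher. Gfap, the intermediate filament of astrocytes, was at 3868, 5415, 3795 and 4057 CPM in Intact and at 15222, 9539, 9373 and 13624 CPM in +PBS-4w (log2 fold change 1.48, SE 0.27, edgeR adjusted p = 9.08e-05). Vim, a filament that reactive astrocytes share with fibroblasts and macrophages, was at 89.4, 336, 372 and 304 and at 2274, 3279, 3427 and 3244 CPM (log2 fold change 3.47, SE 0.33, edgeR adjusted p = 3.56e-08). Both genes were separate between groups, and replicate 1 was the highest injured library for Gfap and the lowest for Vim. Ptx3, Timp1, Aspg, Emp1 and Osmr, the receptor for oncostatin M, had log2 fold changes of 3.60, 3.12, 2.96, 2.65 and 2.61. The gene of the list that was not called was Lcn2 (log2 fold change 1.98, SE 0.71, edgeR adjusted p = 0.0241), an iron-binding protein of acute inflammation.

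Genes for the housekeeping work of astrocytes were mostly not called. Of 15 genes 2 were lower and 0 higher, where 10.7% of all genes tested were lower (median log2 fold change -0.25). Aqp4, the water channel of astrocyte endfeet, was at 2063, 2010.4, 1889.8 and 1949 CPM in Intact and at 1782, 2119.8, 1942 and 2376 CPM in +PBS-4w (log2 fold change 0.06, SE 0.23, edgeR adjusted p = 0.856), and the groups overlapped. The lower genes were Kcnj10, the potassium channel that buffers extracellular potassium, and Slc1a2, the main glutamate transporter. Kcnj10 was at 209, 222, 279 and 239.7 CPM in Intact and at 25.9, 60.1, 68.0 and 71.8 CPM in +PBS-4w (log2 fold change -2.07, SE 0.27, edgeR adjusted p = 1.72e-06). Slc1a2 was at 309.7, 210.3, 297 and 208 and at 21.4, 73.8, 99.2 and 99.1 CPM (log2 fold change -1.80, SE 0.35, edgeR adjusted p = 0.000233). Replicate 1 was the lowest library for both, but they stayed lower without it, at log2 fold changes of -1.78 and -1.45. Slc1a3, the second glutamate transporter of astrocytes, had -0.27 and was not called.

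Of 11 genes of ependymal cells, which line the central canal and bear motile cilia, 2 were higher (median log2 fold change 0.89). Without +PBS-4w replicate 1 there were 3 (median 0.92). Of all genes tested 13.3% were higher with all libraries and 14.9% without that library. The 2 called with all libraries were Tmem212 and Rsph1. Tmem212 was at 2.51, 2.199, 2.31 and 2.28 CPM in Intact and 4.14, 7.41, 4.21 and 5.32 CPM in +PBS-4w (log2 fold change 1.18, SE 0.36, edgeR adjusted p = 0.00854). Rsph1, a radial spoke protein, had groups that overlapped (log2 fold change 1.12, SE 0.32, edgeR adjusted p = 0.00569) and was not called without +PBS-4w replicate 1. Neither was called without +PBS-4w replicate 2 or without Intact replicate 3 or 4.

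Genes of macrophages and phagocytic microglia were higher by large factors. All 14 phagocytic genes tested were higher (median log2 fold change 3.32), as were 10 of 11 macrophage genes (median 2.64) and 19 of 25 lysosomal genes (median 1.83). Trem2, the lipid receptor of phagocytic microglia, was at 7.42, 12, 13.6 and 19.0 CPM in Intact and at 223, 119, 183 and 169 CPM in +PBS-4w (log2 fold change 3.73, SE 0.30, edgeR adjusted p = 4.09e-09). Lgals3, a galactose-binding lectin of foamy macrophages, was at 19.8, 37.6, 27.99 and 39.3 and at 919, 538, 809 and 1095 CPM (log2 fold change 4.75, SE 0.32, edgeR adjusted p = 8.21e-10). Clec7a, Msr1, a scavenger receptor, and Itgax had log2 fold changes of 5.83, 4.72 and 4.45. In the lysosome list, Ctsd, its major aspartic protease, was at 440.2, 525, 520.0 and 541 CPM in Intact and at 3764, 2211, 3472 and 3338 CPM in +PBS-4w (log2 fold change 2.66, SE 0.21, edgeR adjusted p = 4.16e-09). Grn, Ctsk and Atp6v0d2, a proton pump subunit of osteoclasts and macrophages, had log2 fold changes of 3.22, 3.34 and 4.45, while Lamp1, a protein of every lysosome, had 0.87 and Npc1 was not called (-0.18). The core of the element that the lysosomal regulator TFEB reads, TCACGTGA on both strands, was in 3 of the 18 promoter windows found for this list and in 0.867% of all windows. Only 1 of the 13 windows of called genes held it, and the other 2 matches, Lamp1 among them, were in genes not called. That of Ctsd is shown with the core in capitals.
Ctsd, chr1:206968822-206968881, minus strand: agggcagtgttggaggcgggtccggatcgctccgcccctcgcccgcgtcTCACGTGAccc

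The genes of resting microglia showed much smaller differences. Of 11 genes 4 were higher and 0 lower (median log2 fold change 0.74), where 13.3% of all genes tested were higher and 10.7% lower. Csf1r, the survival receptor of microglia and macrophages alike, was at 143, 169.6, 178 and 214 CPM in Intact and at 459.8, 477, 719 and 618 CPM in +PBS-4w (log2 fold change 1.69, SE 0.21, edgeR adjusted p = 1.02e-06). Tmem119 and P2ry12, which mark microglia apart from blood-derived macrophages, had log2 fold changes of 0.89 and 0.50 and were not called. P2ry12 was at 20.8, 16.1, 24.9 and 27.6 CPM in Intact and at 30.3, 25.3, 36.6 and 34.6 CPM in +PBS-4w, with overlap. Olfml3, the largest change of the list at 2.74, is also made by cells of the meninges and vessels.

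Iron handling was higher in part, 5 of 13 genes being higher and 1 lower (median log2 fold change 1.02). Among all genes tested 13.3% were higher and 10.7% lower. Hmox1, which degrades heme, was at 15.1, 13.7, 14.8 and 19.4 CPM in Intact and at 88.9, 57.5, 94.8 and 80.1 CPM in +PBS-4w (log2 fold change 2.35, SE 0.24, edgeR adjusted p = 1.05e-07). Cp, which oxidizes iron for export, was at 33.6, 66.4, 79.4 and 69.4 and at 322, 720.4, 843 and 509 CPM (log2 fold change 3.27, SE 0.30, edgeR adjusted p = 2.88e-08). Tfrc, the receptor for transferrin that cells make when iron is scarce, was lower, at 171, 169, 182 and 192 and at 81.0, 78.4, 67.8 and 74.8 CPM (log2 fold change -1.24, SE 0.15, edgeR adjusted p = 8.56e-07). All 3 genes separated the groups in every library. Of all genes tested, 22.4% lay wholly above and 21.3% wholly below Intact in this way.

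**Figure D3:**
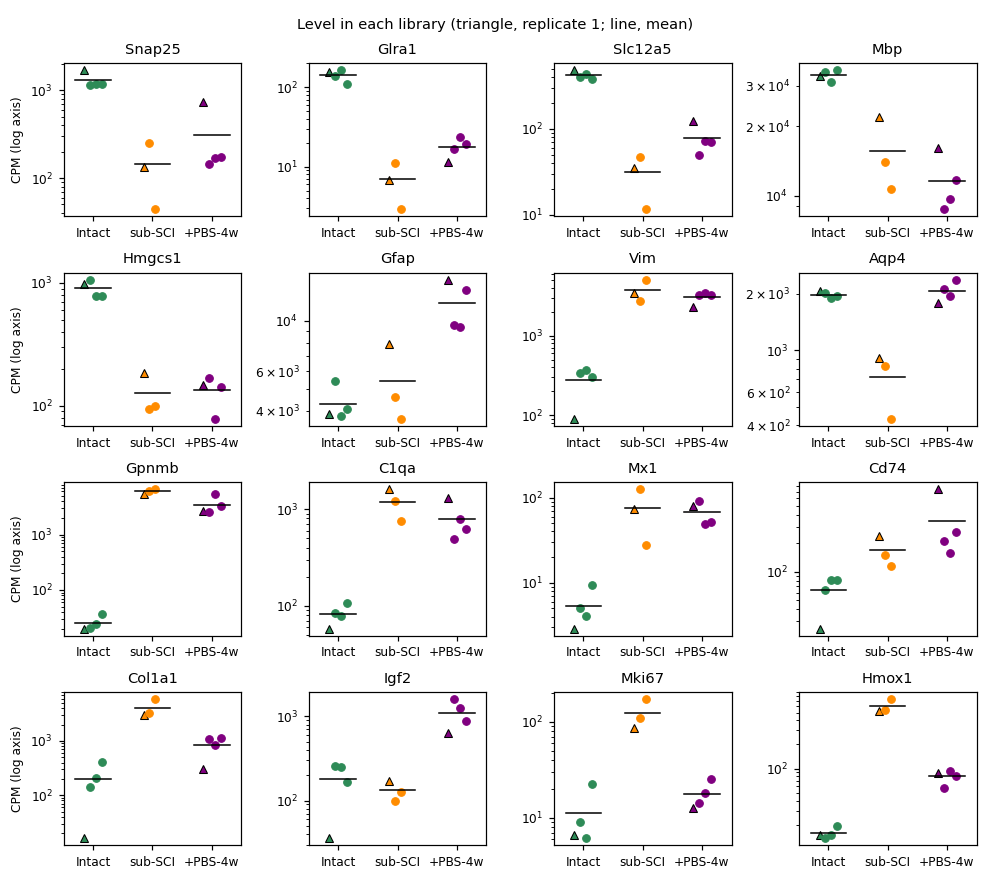
CPM of 16 genes in each Intact, sub-SCI and +PBS-4w library on logarithmic y axes that differ between panels. Triangles mark replicate 1 of each group, circles the other replicates, and bars the group mean. Snap25, Glra1, Slc12a5, Mbp and Hmgcs1 lie lower in every +PBS-4w library than in any Intact library, Gfap, Vim, Gpnmb, C1qa, Mx1, Cd74, Igf2 and Hmox1 lie higher in every one, and Aqp4, Col1a1 and Mki67 overlap.

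Complement genes were higher in 17 of 22 cases and lower in 0 (median log2 fold change 2.76). Complement marks debris and synapses for removal, and microglia and macrophages make its first component. C1qa was at 58.0, 84.2, 78.0 and 108 CPM in Intact and at 1292, 486, 783 and 629.6 CPM in +PBS-4w (log2 fold change 3.28, SE 0.29, edgeR adjusted p = 1.53e-08). C1qb and C1qc, the other chains of the same protein, had log2 fold changes of 3.27 and 3.47. Serping1, an inhibitor that blocks the first component, was higher too, at 11.1, 38.6, 52.3 and 39.7 and at 361, 519, 476 and 391 CPM (log2 fold change 3.62, SE 0.36, edgeR adjusted p = 7.69e-08). C3, the central component, was at 135, 217, 133 and 249.8 CPM in Intact and at 236, 234, 219.9 and 206 CPM in +PBS-4w and was not called (log2 fold change 0.28, SE 0.50, edgeR adjusted p = 0.659). Its groups overlapped in full. C4a and C4b are near-identical copies, so their split of reads is uncertain.

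Chemokines and their receptors were higher in 25 of 32 cases (median log2 fold change 2.77). Cxcl10, which draws activated T cells, was at 0.764, 1.56, 0.694 and 0.988 CPM in Intact and at 17.8, 19.9, 8.19 and 11.3 CPM in +PBS-4w (log2 fold change 3.83, SE 0.40, edgeR adjusted p = 1.39e-07). Ccl2, which draws monocytes, was at 0.109, 0.596, 0.555 and 0.722 and at 3.76, 8.29, 2.77 and 5.28 CPM (log2 fold change 3.29, SE 0.51, edgeR adjusted p = 1.62e-05). Ccl3 and Ccl21 had log2 fold changes of 4.46 and 7.02 from Intact levels of at most 0.324 and 0.183 CPM, and reads of Ccl21 may be shared with close copies. Cytokine and inflammasome genes were higher in 9 of 17 cases. Tgfb1 was at 13.3, 23.5, 18.1 and 26.5 CPM in Intact and at 129.8, 123, 142 and 112 CPM in +PBS-4w (log2 fold change 2.63, SE 0.19, edgeR adjusted p = 1.60e-09), and Casp1 and Pycard, which assemble the inflammasome, had log2 fold changes of 2.05 and 2.19. Il1b and Il6 were not called (0.69 and 1.04) and stayed below 1.5 CPM in every library of the 2 groups.

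Genes induced by interferon were higher in 19 of 20 cases (median log2 fold change 2.21). Interferon acts through a factor complex that binds a short element in promoters, the interferon-stimulated response element, written here as GAAANNGAAA and searched on both strands. In the same RefSeq promoter windows as above it was present in 10 of the 13 windows found for the list and in 3.77% of all 27457 windows. The 60-base stretches around it are shown for the called genes of largest fold change among those with a match before the gene start. The element, on either strand, is in capitals, and in Bst2 overlapping copies run together. The window of Mx1, the gene with the largest change of the list, held 0 matches.
Irf7, chr1:205800058-205800117, minus strand: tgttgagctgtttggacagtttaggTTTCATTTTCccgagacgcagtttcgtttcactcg
Gbp2, chr2:234005667-234005726, plus strand: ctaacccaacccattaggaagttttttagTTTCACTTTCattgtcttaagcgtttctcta
Rsad2, chr6:48788233-48788292, minus strand: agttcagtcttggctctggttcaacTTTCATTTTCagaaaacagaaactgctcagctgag
Ifit3, chr1:241527257-241527316, plus strand: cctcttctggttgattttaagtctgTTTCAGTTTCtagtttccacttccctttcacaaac
Bst2, chr16:18255058-18255117, minus strand: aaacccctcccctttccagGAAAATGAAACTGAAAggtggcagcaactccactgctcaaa
A match of these letters is a description of the window and not a tested site. Irf7, the factor that amplifies the response, was at 6.38, 18.6, 9.58 and 12.2 CPM in Intact and at 149.6, 85.9, 68.1 and 46.5 CPM in +PBS-4w (log2 fold change 2.90, SE 0.47, edgeR adjusted p = 3.02e-05). Mx1, a GTPase that blocks viruses, was at 2.89, 4.99, 4.02 and 9.46 and at 79.4, 91.0, 49.1 and 51.3 CPM (log2 fold change 3.65, SE 0.50, edgeR adjusted p = 4.35e-06). Gbp2, Rsad2, Ifit3 and Bst2 had log2 fold changes of 2.86, 2.75, 2.64 and 2.45. Ifit1 did not follow the groups as closely, at 2.89, 5.50, 0.0925 and 0.304 CPM in Intact and 41.9, 29.4, 26.4 and 0.413 CPM in +PBS-4w (log2 fold change 3.50, SE 1.08, edgeR adjusted p = 0.00964). Its last injured library lay inside the Intact range, and it was not called without +PBS-4w replicate 1, 2 or 3 or without Intact replicate 1, 3 or 4.

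Calls of MHC class II genes, which present antigen, rested on single libraries. Of 10 genes 2 were higher with all libraries (median log2 fold change 2.11) and 0 without +PBS-4w replicate 1 (median 1.73). With all libraries 13.3% of all genes tested were higher. Without Intact replicate 1 or 2 there was also 0. Cd74, the invariant chain, was at 24.9, 63.6, 82.3 and 81.6 CPM in Intact and at 746, 213, 158 and 264 CPM in +PBS-4w (log2 fold change 2.45, SE 0.66, edgeR adjusted p = 0.00376, and adjusted p = 0.0203 without replicate 1). All 4 injured libraries were above all Intact libraries. The other gene called was RT1-Da (2.54), and reads of the RT1 genes may be shared among copies.

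Lymphocyte genes were higher in 8 of 17 cases for T and natural killer cells (median log2 fold change 1.65) and in 0 of 10 for B cells (median -0.45). The share of all genes tested that were higher, 13.3%, applies to each count of this paragraph. Cd8b was at 0.0546, 0.183, 0.0463 and 0.114 CPM in Intact and at 15.3, 8.78, 18.8 and 15.4 CPM in +PBS-4w (log2 fold change 7.10, SE 0.41, edgeR adjusted p = 1.74e-10). In the rat, macrophages and natural killer cells can carry CD8 as well as T cells. Cd3e, a chain of the T cell receptor complex, was at 0, 0, 0.185 and 0.190 and at 2.61, 1.94, 1.34 and 0.826 CPM (log2 fold change 4.02, SE 0.87, edgeR adjusted p = 0.000564), a low level in every library. The count of T and natural killer cell genes was 5 without +PBS-4w replicate 1 and also without Intact replicate 2 or 3. Of 9 neutrophil genes 1 was higher, Csf3r (1.73), and S100a9 was at 3.44, 18.0, 6.66 and 54.8 CPM in Intact and at 115, 8.50, 33.8 and 8.90 CPM in +PBS-4w, with the highest values in +PBS-4w replicate 1 and Intact replicate 4.

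Fibroblast and scar genes were higher in 10 of 16 cases (median log2 fold change 2.33) and collagens in 12 of 22, with 1 lower, Col11a2 at the threshold (median 1.91). Dcn, a small proteoglycan that binds collagen fibrils, was at 10.5, 79.4, 155 and 109.9 CPM in Intact and at 211, 695, 678 and 567 CPM in +PBS-4w (log2 fold change 2.60, SE 0.61, edgeR adjusted p = 0.0013). Fn1, the fibronectin of the scar core, was at 96.0, 213, 326 and 242 and at 264, 1613, 1188 and 1337 CPM (log2 fold change 2.33, SE 0.51, edgeR adjusted p = 0.00065). Col1a1, the main fibrillar collagen, was at 16.2, 139.8, 209 and 418 and at 298, 1098, 831 and 1126 CPM (log2 fold change 2.1, SE 0.63, edgeR adjusted p = 0.00778). Replicate 1 was the lowest injured library for all 3 and lay inside the Intact range for Fn1 and Col1a1. Without it 17 collagens and 11 scar genes were higher (medians 2.26 and 2.66). Without +PBS-4w replicate 2 there were 7 higher collagens, Col1a1 not among them, and Col1a1 was also not called without +PBS-4w replicate 3 or 4 or without Intact replicate 2 or 3. Without Intact replicate 1, the lowest Intact library for these genes, 9 scar genes were higher (median 2.08).

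Col15a1, Col18a1 and Col8a2, collagens of basement membranes and vessels, had log2 fold changes of 2.68, 2.49 and 2.76, the last not called without +PBS-4w replicate 2, and Col6a1 and Col6a2, the beaded filaments around cells, had 2.57 and 2.34. Integrins and laminins were higher in 14 of 28 cases and lower in 1 (median 1.32). Itgb2, the leukocyte integrin chain, was at 15.7, 20.4, 18.4 and 26.1 CPM in Intact and at 160.3, 145, 277 and 193 CPM in +PBS-4w (log2 fold change 3.26, SE 0.26, edgeR adjusted p = 3.99e-09), and Lama1, Lama2 and Lamb1 of basement membranes had 2.08, 2.26 and 2.1. Of 20 genes of TGF-beta signaling 12 were higher and 1 was lower, Inhba at -1.28 (median 1.55). Without +PBS-4w replicate 1 Inhba was at -1.02 and was not called (edgeR adjusted p = 0.0166). The receptors Tgfbr1 and Tgfbr2 had log2 fold changes of 2.15 and 2.25, and Ltbp2, Bmp7 and Bmp6 had 3.22, 2.88 and 2.65.

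Enzymes that cut matrix were higher in 10 of 21 cases, inhibitors included, and lower in 2 (median log2 fold change 1.29). Among all genes tested 13.3% were higher and 10.7% lower. The lower count was 1 without +PBS-4w replicate 1 or 3 or Intact replicate 1 or 2. It was 0 without +PBS-4w replicate 2 or 4 or Intact replicate 4. Mmp14, a membrane-bound collagenase, and Mmp2, which it activates, had log2 fold changes of 2.28 and 1.99. Timp1, their inhibitor, was at 4.58, 11.2, 17.5 and 15.4 CPM in Intact and at 102, 104, 103 and 114 CPM in +PBS-4w (log2 fold change 3.12, SE 0.29, edgeR adjusted p = 2.99e-08), nearly equal in the 4 injured libraries. Mmp7 was called (log2 fold change 6.18, SE 1.51, edgeR adjusted p = 0.0017) but its groups overlapped, at 0, 0, 0.139 and 0.0760 and 9.84, 0.0706, 1.43 and 6.33 CPM.

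The proteoglycans followed a different course from the collagens. Of 18 genes 1 was higher and 5 were lower (median log2 fold change -0.28), where 13.3% of all genes tested were higher and 10.7% lower. The lower genes were Hapln1, Hapln4 and Hapln2, link proteins of the nets around neurons and nodes, Acan, the aggrecan of those nets, and Has3. Acan was at 31.8, 31.2, 32.4 and 31.2 CPM in Intact and at 8.72, 4.27, 2.95 and 5.87 CPM in +PBS-4w (log2 fold change -2.54, SE 0.27, edgeR adjusted p = 1.42e-07). Ncan, Bcan and Vcan, the chondroitin sulfate proteoglycans of glial scars, were not called, with log2 fold changes of 0.33, -0.21 and -0.06. The higher gene was Tnc, at 7.04, 7.15, 9.39 and 16.4 CPM in Intact and 18.2, 37.5, 20.1 and 69.1 CPM in +PBS-4w (log2 fold change 1.85, SE 0.47, edgeR adjusted p = 0.00223), and it was not called without +PBS-4w replicate 4.

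Genes of the meninges were higher in 6 of 8 cases (median log2 fold change 2.62). Igf2, a growth factor that meningeal cells release, was at 35.9, 261, 252 and 168 CPM in Intact and at 638, 1620.1, 1244 and 879 CPM in +PBS-4w (log2 fold change 2.61, SE 0.64, edgeR adjusted p = 0.00186). Foxc1, a regulator of meningeal development, was at 5.402, 17.4, 19.0 and 15.9 and at 38.5, 165, 110.3 and 86.9 CPM (log2 fold change 2.79, SE 0.52, edgeR adjusted p = 0.000124). Intact replicate 1 was the lowest library for both, and without it 5 of the genes were higher (median 2.31). With replicate 1 of every group left out together, 7 meningeal, 3 Schwann cell and 10 scar genes were higher (medians 2.49, 1.61 and 2.30).

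Endothelial genes were called at about the share of all genes, of which 13.3% were higher. Of 8 endothelial genes 1 was higher, Cdh5, the adhesion protein of endothelial junctions, at 16.8, 29.5, 37.7 and 29.2 CPM in Intact and 45.3, 213, 144 and 147 CPM in +PBS-4w (log2 fold change 2.28, SE 0.43, edgeR adjusted p = 0.00014), while Kdr and Tek were at log2 fold changes of -0.24 and 0.06. Of 8 barrier genes, Lsr was higher (1.46, with a second gene higher without +PBS-4w replicate 1) and Mfsd2a, a lipid transporter that keeps the barrier tight, was lower, at 56.0, 68.1, 59.0 and 54.0 CPM in Intact and at 38.0, 17.5, 30.0 and 22.7 CPM in +PBS-4w (log2 fold change -1.13, SE 0.33, edgeR adjusted p = 0.00631), a call that held only when +PBS-4w replicate 1 or Intact replicate 4 was the library left out. Of 10 genes of mural cells 3 were higher, namely Anpep, Acta2 and Pdgfrb (3.65, 1.33 and 1.29), which fibroblasts share (5 without Intact replicate 2), while Rgs5, Kcnj8 and Abcc9 of pericytes were not called.

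Genes of repair and stress were higher in part. Of 13 genes linked with axon regeneration 6 were higher and 0 lower, and without +PBS-4w replicate 1 they were 5 and 1. The shares of all genes tested, 13.3% higher and 10.7% lower, apply to each count of this paragraph made with all libraries. Atf3, a factor that injured neurons switch on, was at 1.91, 2.70, 1.39 and 2.09 CPM in Intact and at 40.9, 31.8, 41.8 and 34.0 CPM in +PBS-4w (log2 fold change 4.19, SE 0.37, edgeR adjusted p = 1.63e-08), whereas Gap43 and Sox11, which growing axons use, were not called (-0.32 and -0.03 on the log2 scale). Sprr1a rested on 1 count in all Intact libraries, and the ratio of the summed counts was 34.5 (95% exact binomial interval 5.82 to 1399, counting error only). Of 20 genes of growth factors and their receptors 6 were higher, among them Igf1 (2.94), and Lifr was lower (-1.03, and not called without +PBS-4w replicate 1 or any 1 Intact library). Bdnf, at 3.27, 2.38, 2.13 and 3.15 CPM in Intact and 2.61, 1.34, 2.24 and 1.15 CPM in +PBS-4w, was not called (log2 fold change -0.57, SE 0.39, edgeR adjusted p = 0.234). Of 12 immediate early genes 9 were higher and 1 was lower. The lower gene was Arc, which neurons make on synaptic activity (log2 fold change -1.83, SE 0.35, edgeR adjusted p = 0.000206), and Junb was the largest increase, at 13.6, 19.1, 18.5 and 21.9 CPM in Intact and 90.2, 97.4, 177 and 119 CPM in +PBS-4w (log2 fold change 2.72, SE 0.23, edgeR adjusted p = 1.08e-08).

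The remaining lists are described by their counts, to be read beside the 13.3% of all genes tested that were higher and the 10.7% that were lower. S100 and annexin genes were higher in 11 of 18 cases (median log2 fold change 1.53), with S100a11, S100a4, S100a6 and Anxa1 between 3.08 and 3.79. Of 19 Hox genes, which keep the position of a segment along the body, 1 was higher and 2 were lower (5 without +PBS-4w replicate 1), with Hoxb9 the largest (log2 fold change -2.22, SE 0.40, edgeR adjusted p = 8.26e-05). Nuclear genes of the respiratory chain were called in neither direction (27 tested, median log2 fold change -0.35). Of 17 cell division genes 3 were higher, Top2a, Cdk1 and Mcm2, with 5 to 7 without +PBS-4w replicate 2 or 3 or Intact replicate 4, and Mki67, a marker of dividing cells, was at 6.60, 8.98, 6.15 and 22.7 CPM in Intact and at 12.6, 14.1, 18.1 and 25.5 CPM in +PBS-4w, with overlap (log2 fold change 0.65, SE 0.36, edgeR adjusted p = 0.133, and called at 1.28 without Intact replicate 4). Among genes of tissue outside the cord, 1 was called in skeletal muscle, Pvalb, which cord interneurons share (6 tested), 0 in erythroid cells (5 tested) and 1 in dorsal root ganglion neurons, Mrgprx3 (5 tested). Skeletal muscle RNA was nevertheless present in single libraries, with Acta1 at 6.71, 7.19, 4.21 and 160.0 CPM in Intact and at 9.28, 103, 1.66 and 2.43 CPM in +PBS-4w.

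The +PBS-4w libraries were next compared with sub-SCI cord, from 7 days after injury, to describe how the later state differed from the earlier one. The sub-SCI cord was taken at the time of the injection. Elapsed time, the PBS injection and the further 4 weeks of cyclosporin A therefore cannot be told apart in this comparison. Against sub-SCI, 770 genes (4.28%) were higher and 555 (3.09%) lower in +PBS-4w. The counts were 355 and 359 without sub-SCI replicate 3, 1007 and 592 without +PBS-4w replicate 1, and 52 and 187 with edgeR fitted to these 2 groups alone, where DESeq2 fitted to the same 2 groups gave 722 and 625. Of the 2395 genes higher than in Intact, 228 were lower and 146 higher than in sub-SCI, and 2021 were not called. Of the 1923 genes lower than in Intact, 139 were higher and 9 lower than in sub-SCI, and 1775 were not called. The +PBS-4w libraries serve in both comparisons, so that these counts are not independent.

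Of 17 cell division genes 15 were lower than in sub-SCI, with a median log2 fold change against Intact of 3.26 in sub-SCI and 0.89 in +PBS-4w. Mki67 was at 85.7, 109.6 and 174 CPM in sub-SCI, above all 4 +PBS-4w libraries (log2 fold change -2.81, SE 0.39, edgeR adjusted p = 2.93e-05). Hmox1 was at 522, 534 and 743 CPM in sub-SCI (log2 fold change -2.90, SE 0.25, edgeR adjusted p = 4.82e-07) and Tnc at 435, 535 and 963 CPM (log2 fold change -4.15, SE 0.52, edgeR adjusted p = 1.07e-05). Both genes were still above Intact at 4 wpt. Ctsl, a lysosomal protease, Ninj1, which ruptures the membrane of dying cells, and Sdc1, a heparan sulfate proteoglycan, were the other genes with the smallest adjusted p among those lower than in sub-SCI, at log2 fold changes of -1.51, -1.46 and -3.0. Cd8a was at 178, 159 and 168 CPM in sub-SCI and at 19.97, 7.02, 13.4 and 19.96 CPM in +PBS-4w (log2 fold change -3.48, SE 0.38, edgeR adjusted p = 3.31e-06).

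Astrocyte homeostasis genes and ependymal genes were higher than in sub-SCI in many cases. Of 15 astrocyte homeostasis genes 7 were higher and 0 lower (median against Intact -1.21 in sub-SCI and -0.25 in +PBS-4w), and of 11 ependymal genes 9 were higher (medians -1.68 and 0.89). Aqp4 was at 909.6, 820.3 and 431 CPM in sub-SCI (log2 fold change 1.51, SE 0.25, edgeR adjusted p = 0.000222), below every +PBS-4w library. Of 15 reactive astrocyte genes 1 was higher and 3 were lower than in sub-SCI (median -0.31). The gene higher was Gfap, from 7919, 4611 and 3680.2 CPM in sub-SCI (log2 fold change 1.14, SE 0.29, edgeR adjusted p = 0.00622), and those lower were Nes, Timp1 and Tnc, at log2 fold changes of -1.30, -1.30 and -4.15. Among the genes with the smallest adjusted p of those higher were Pygb, the glycogen phosphorylase of brain, Fam151a and Itm2c, at log2 fold changes of 1.14, 1.34 and 1.12. Igf2 of the meninges had 3.05.

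Neuronal lists differed in their calls between 7 and 35 days after injury. Of 15 neuronal genes 0 were higher and 0 lower than in sub-SCI (medians against Intact -2.71 and -1.89), and of 19 vesicle genes 2 were higher. Without +PBS-4w replicate 1 the second neuronal median was -2.53. The mean log2 CPM of the neuronal genes was 6.17, 6.42 and 4.68 in sub-SCI and 7.70, 5.95, 6.20 and 6.40 in +PBS-4w. The 2 medians therefore rest in part on sub-SCI replicate 3 and +PBS-4w replicate 1. Of 20 GABA receptor genes 4 were higher and of 28 potassium channel genes 8 were higher, where 4.28% of all genes were. Chat was higher too, from 7.53, 6.67 and 1.899 CPM in sub-SCI (log2 fold change 1.66, SE 0.42, edgeR adjusted p = 0.00644). Cholesterol synthesis genes were called in 0 and 0 cases, with medians against Intact of -1.83 in sub-SCI and -1.79 in +PBS-4w. Hmgcs1 was at 186, 94.5 and 99.1 CPM in sub-SCI, and was not called against it (log2 fold change 0.08, SE 0.26, edgeR adjusted p = 0.854). Phagocytic genes were lower in 1 case of 14 and complement genes were higher in 2 and lower in 4 of 22.

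**Figure D4:**
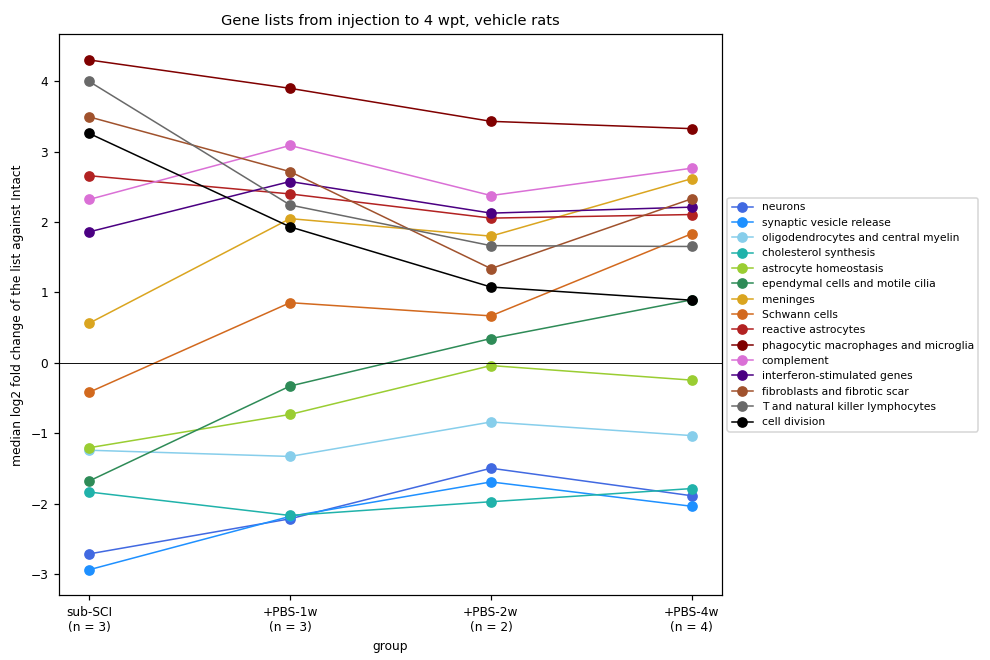
Median log2 fold change against the same 4 Intact libraries for 15 gene lists (y axis) in sub-SCI (n = 3), +PBS-1w (n = 3), +PBS-2w (n = 2) and +PBS-4w (n = 4) on the x axis, with 1 line per list and no error bars. The cell division line drops from 3.26 to 0.89, the ependymal line crosses 0 from -1.68 to 0.89, and the cholesterol synthesis line stays between -2.17 and -1.79.

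+PBS-4w replicate 1 was closer to Intact than the other +PBS-4w libraries. For each injured library, the genes called with that library left out were taken, and its share of their mean change was measured. Replicate 1 showed 72.3% of the change of the higher genes and 54.2% of that of the lower genes, whereas replicates 2 to 4 showed 101% to 107% and 96.7% to 115%. Each share is relative to the other libraries of the group. For replicates 2 to 4 these included replicate 1, which raises their shares, so the 4 are not on a common scale. The deviation of replicate 1 also ran with the length of the gene's exons. Over 14386 genes with a mean above 1 CPM in both groups, its median deviation from the other 3 libraries was 0.452 on the log2 scale in the shortest of 5 length classes of equal size (median length 968 bases), 0.242, 0.056 and -0.121 in the next 3, and -0.471 in the longest (median 5283 bases). In replicates 2 to 4 the shortest class was at -0.185 to -0.108 and the longest at 0.122 to 0.209. The libraries these were set against included replicate 1, so the values hold part of its deviation with the opposite sign. In the Intact libraries all classes lay between -0.067 and 0.085. The part of the length pattern in the results was not tested.

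Without replicate 1, 426 more genes were called higher and 352 more lower, and 134 and 193 calls were lost. The genes gained with the smallest adjusted p were Ampd2, Rela, Atp13a2 and Actr1b, and those lost were Dagla, Prr13, Synj1 and Kif1b. All 8 lay close to the threshold of fold change. Rela, a subunit of NF-kappaB, had a log2 fold change of 0.97 with all libraries and 1.10 without replicate 1, and Synj1, a phosphatase of synaptic vesicles, had -1.11 and -0.99. Some neuronal lists gained calls without it, with 15 of 15 neuronal, 15 of 16 cytoskeleton and 18 of 19 vesicle genes lower. Other lists lost calls. Lower were 6 of 8 genes of GABA and glycine synthesis and transport and 14 of 18 ionotropic glutamate receptor genes (median -1.28). Of 8 cation-chloride cotransporter and kinase genes 1 was lower, against 2 with all libraries. The numbers of lower sodium, calcium and potassium channel genes stayed at 10, 17 and 20. Also without it, meningeal genes were higher in 8 of 8 cases, collagens in 17 of 22, phagocytic genes in 14 of 14 and cholesterol synthesis genes lower in 17 of 20.

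Of the 239 genes named here, 191 were called with all libraries, and 29 of these lost the call when some 1 library was left out. They were Pvalb, Calb2, Nefm, Nefh, Chat, Dagla, Synj1 and Kif1b of neurons, Tmem212, Rsph1, Pmp22, Scn7a and Has3 of glia, Cd74, RT1-Da and Ifit1 of immune cells, and Col1a1, Col8a2, Col11a2, Acta2, Tnc and Mmp13 of matrix and mural cells. The remaining 7 were Lifr, Inhba, Mfsd2a, Sprr1a, Top2a, Prr13 and Fam151a. Of the genes not called, 8 passed without some 1 library, among them Tmem119 and Mki67 without Intact replicate 4 and Gabra2 without +PBS-4w replicate 4.

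**Figure D5:**
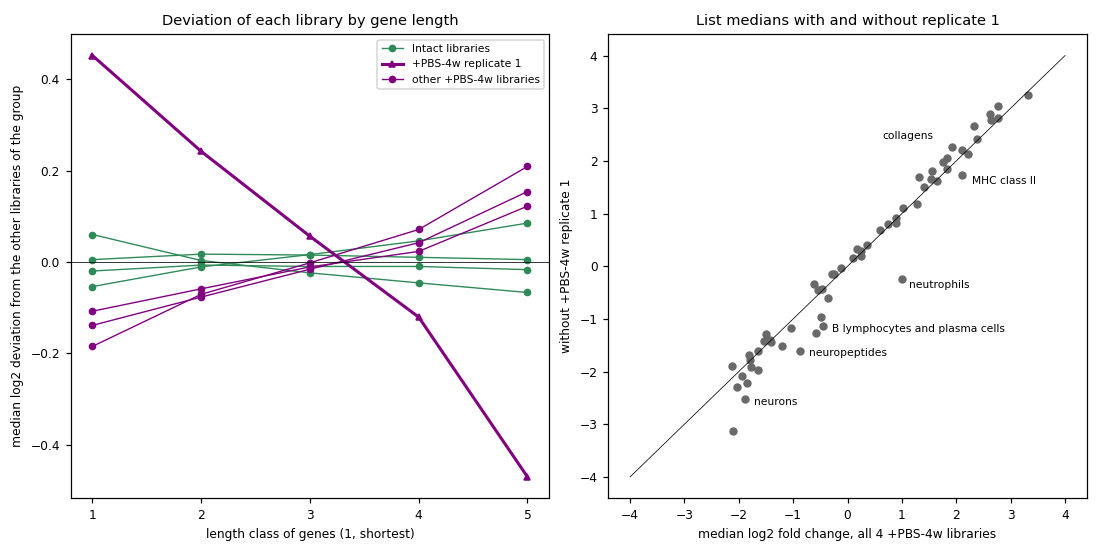
Left, median log2 deviation of each Intact (green) and +PBS-4w (purple) library from the other libraries of its group (y axis) over 14386 genes in 5 length classes (x axis), with +PBS-4w replicate 1 as the thick line that goes from 0.452 to -0.471. Right, median log2 fold change against Intact of each of 59 gene lists with all 4 +PBS-4w libraries (x axis) and without replicate 1 (y axis), 1 point per list and a line of equality. Neutrophils (1.00 and -0.24), neuropeptides (-0.87 and -1.61) and the unlabelled lowest point, vesicular glutamate transporters and interneuron calcium-binding genes (-2.10 and -3.12), lie well below it.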

How the data were processed

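RNA from 5 mm of rat spinal cord was sequenced from poly(A) libraries (26 libraries in 8 groups). The authors deposited raw counts per gene for each library (32883 genes, 6513 of them at 0 in every library). Per the labels and the study's methods they trimmed reads with Trim Galore 0.5.0, removed reads that aligned to human GRCh38 with HISAT2 2.1.0, aligned the rest to Rnor6, handled alignments with SAMtools 1.9 and counted with featureCounts 1.6.4. The annotation release and the strand setting are not given in the sources used here, so overlapping genes and near-identical copies are uncertain. Reads of conserved sequence may have gone with the human ones.

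Counts were tested as deposited with edgeR 4.0.16 in R 4.3.3 (filterByExpr, 17990 genes, TMM scaling, a quasi-likelihood fit of all 26 libraries with 8 group levels, p-values adjusted by the method of Benjamini and Hochberg over all genes tested). The threshold for a DEG, taken from the study, was a log2 fold change beyond 1 or -1 with an adjusted p below 0.01. CPM are scaled to a TMM-adjusted library total of 1000000. Levels of lists and principal components used log2 CPM with a prior count of 2. Counting limits the precision of low genes, and intervals cover counting error only. Exact permutation tests used scipy 1.17.1.

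The comparison, the genes and the 59 lists were chosen with earlier results of these data known, so lists are described by counts and medians, without a test. Genes were named by a rule: in each direction the 10 DEGs of smallest adjusted p and the 5 of largest change at a mean of at least 5 CPM in the higher group, clone and locus names left out, members of the lists, 4 genes in each direction against sub-SCI, and 4 gained and 4 lost without +PBS-4w replicate 1. Some of these genes are not reported here by name. Promoter sequence came from RefSeq (assembly GRCr8), matched by symbol, and its coordinates belong to that assembly and not to Rnor6. Alternatives were DESeq2 1.42.0, a fit of only the groups compared, other size factors and filters on low counts, a block or term for replicate numbers, and each library left out in turn.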

Additional observations from a re-analysis of the deposited data

Results flagged for a closer look

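Each gene named in the report, each gene list and the library measures were examined for a single library far from the other 3 of its group, by the gap to its nearest neighbour as a share of the range (Dixon's criterion at 95%). Of 600 groups of 4 values, 55 had such a library, where chance alone would give about 5%. That rate does not hold for genes named because +PBS-4w replicate 1 changed their call. Of the 55, the library was +PBS-4w replicate 1 in 27 and Intact replicate 1 in 9. By group, 33 were of +PBS-4w and 22 of Intact. Values below are those of the library that stood apart against the range of the other 3.

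By mean log2 CPM of the genes of a list, +PBS-4w replicate 1 was low for fibroblasts and fibrotic scar (5.26 against 6.90 to 7.08), collagens (5.78 against 7.20 to 7.38) and integrins and laminins (3.89 against 5.29 to 5.57), and high for vesicular glutamate transporters and interneuron calcium-binding genes (3.72 against 2.04 to 2.30) and respiratory chain of the nucleus (7.37 against 6.47 to 6.58). Intact replicate 1 was low for meninges (1.09 against 4.43 to 5.08), collagens (4.10 against 5.58 to 5.87) and TGF-beta ligands and receptors (3.41 against 4.20 to 4.25), and high for respiratory chain of the nucleus (7.33 against 7.11 to 7.13). Intact replicate 4 was low for neurofilaments and neuronal cytoskeleton, at 9.63 against 9.79 to 9.81. +PBS-4w replicate 2 was low for ionotropic glutamate receptors, at 3.65 against 3.94 to 3.96.

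By CPM, +PBS-4w replicate 1 held more of neuronal and axonal genes than the other +PBS-4w libraries. They included Snap25 (739 against 146 to 175), Thy1 (542 against 130.3 to 147), Nefl (1745 against 505 to 664), Nefh (1652 against 387 to 556), Ina (143 against 52.6 to 56.2), Calb2 (114 against 12.1 to 16.4), Pvalb (49.9 against 5.57 to 6.33) and Penk (138 against 18.3 to 37.8). The others were Slc32a1 (102 against 18.9 to 26.4), Slc17a6 (75.2 against 24.1 to 30.6), Gabra5 (24.1 against 4.02 to 6.42), Htr2c (97.96 against 24.2 to 31.7), Ache (106 against 34.0 to 38.3), Cntnap1 (142 against 90.5 to 96.8), Hapln1 (9.20 against 1.84 to 2.46) and Hapln4 (136 against 29.7 to 42.1). Outside these groups it was high for Actr1b (225 against 137 to 149), Ampd2 (79.3 against 49.2 to 52.8) and Kcnn4 (51.6 against 18.1 to 22.9), and it was low for Lifr (10.4 against 44.4 to 48.2), Anxa1 (130.5 against 179 to 185) and Vim (2274 against 3244 to 3427). Actr1b and Ampd2 were named because they were called only without this library, so their place here follows from that choice. All values of this paragraph come from a single library and are not independent of each other.

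Other libraries stood apart for single genes, by CPM. Intact replicate 1 was high for Snap25 (1691 against 1149 to 1187), Slc32a1 (252 against 169 to 183) and Sprr1a (0.0546, 1 count, against 0 in the others), and low for Pdgfrb (34.1 against 49.2 to 49.96) and Lsr (15.1 against 22.7 to 23.2). +PBS-4w replicate 2 was high for Acta1 (103 against 1.66 to 9.28) and Has3 (2.96 against 1.79 to 1.97). +PBS-4w replicate 3 was high for Fabp4 (63.1 against 9.17 to 17.8) and Clec7a (174 against 117 to 126). +PBS-4w replicate 4 was high for Timp1 (114 against 102 to 104). Intact replicate 2 was high for Gfap (5415 against 3795 to 4057), Srebf2 (281 against 240.7 to 244) and Acta2 (13.4 against 7.42 to 8.32), and low for Penk (98.1 against 118 to 122). Intact replicate 3 was high for Lifr (91.5 against 70.6 to 72.3), and low for Apoe (2433 against 2751 to 2805). Intact replicate 4 was high for Atp6v0d2 (0.836 against 0 to 0.109), Mmp13 (43.7 against 0.183 to 0.546), Fabp4 (2.85 against 0.0916 to 0.370), Acta1 (160.0 against 4.21 to 7.19), Kcnn4 (6.84 against 1.47 to 1.92) and Mki67 (22.7 against 6.15 to 8.98).

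Levels differed between the +PBS-4w and sub-SCI groups for the 7 named genes of that comparison (edgeR's quasi-likelihood test of +PBS-4w against sub-SCI). The log2 fold changes were 1.14 for Pygb, 1.34 for Fam151a and 1.12 for Itm2c, and -3.0 for Sdc1, -1.46 for Ninj1, -2.90 for Hmox1 and -1.51 for Ctsl.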

How the results depend on the processing

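Against Intact, the counts of DEGs stayed within 1.5 times of the reported ones in all 34 values under the alternatives (1890 to 2687 higher and 1475 to 2097 lower). Against sub-SCI they were 52 higher and 187 lower with edgeR fitted to only these 2 groups, 722 and 625 with DESeq2 fitted to the same 2, and ranged from 355 to 1007 higher and from 359 to 592 lower with 1 library left out. Of the values of named genes under the alternatives, 3852 kept their direction and side of the threshold, 161 lost the call, 17 gained one and 1 changed sign, which was Mmp13 (-5.13 to 0.19 with 1 library left out). Of these losses, 22 came with edgeR on the 2 groups compared.

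Of the list medians, 971 moved by less than the spread between libraries and 31 moved by more. Requiring at least 10 counts in every library, which removes genes low in either group, gave medians of 0.85 for T and natural killer lymphocytes, 0.37 for B lymphocytes and plasma cells, -1.43 for glycine receptors and gephyrin, -1.44 for serotonin receptors, 1.99 for chemokines and receptors and 1.06 for matrix metalloproteinases. With all replicate 1 libraries left out they were -1.38 for B lymphocytes, -0.64 for neutrophils, -3.05 for vesicular glutamate transporters and interneuron calcium-binding genes, 1.06 for matrix metalloproteinases and -1.03 for Hox genes. The cause was not tested. With 1 library left out the medians ranged from 1.52 to 2.43 for Schwann cells, 1.94 to 2.48 for reactive astrocytes, 1.48 to 2.72 for T and natural killer lymphocytes, -1.13 to 0.09 for B lymphocytes, -0.24 to 2.16 for neutrophils, -2.29 to 2.31 for skeletal muscle, -0.002 to 0.57 for adipocytes, -1.61 to -1.28 for ionotropic glutamate receptors, -3.12 to -1.83 for vesicular glutamate transporters and interneuron genes, -1.65 to -1.48 for potassium channels, 2.48 to 3.13 for complement, 2.66 to 2.95 for chemokines, 1.00 to 1.83 for matrix metalloproteinases, 1.52 to 1.86 for S100 and annexin genes and -0.97 to -0.36 for Hox genes. The difference in the mitochondrial share lay between -3.64 and -3.02 percentage points, where 3 against 4 libraries cannot reach 0.05 in an exact test.

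The replicate numbers did not pair the libraries throughout. Deviations of same-numbered +PBS-4w and Intact libraries from their group means correlated at 0.247, -0.0055, 0.1801 and -0.0262, and not every library correlated best with its own number. For replicates 1 to 3 against sub-SCI the values were 0.232, -0.164 and 0.191 for +PBS-4w and 0.225, -0.052 and 0.132 for Intact. In each of these comparisons the replicate 1 libraries correlated best with each other. A shared source was not tested. With the replicate number as a block, 2398 genes were higher and 2008 lower than in Intact, 741 higher and 587 lower than in sub-SCI, and the median of matrix metalloproteinases was 1.52.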
